A study of Mus musculus with 6 samples.

Results

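Interferon-response genes are the transcripts that cells make in quantity after an interferon has bound its receptor. A list of 44 such genes in the mouse was followed across 6 regenerating prostates. The members were chosen by name from the textbook interferon response, with earlier results of these data known. A probe set matched the RefSeq transcript of 43 of the 44, out of 20263 genes measured in all. The ubiquitin-like modifier gene Isg15 had no matched probe set and is not analysed here. The 3 control mice were wild type and the 3 mutants carried a loss of function of the Hedgehog effector gene Gli1 (Gli1-/-). Castration at 8 weeks of age, which lets the prostate shrink, was followed after 2 weeks in every mouse by an implanted testosterone pellet, under which the gland grows back. Lobes were collected after 3 days of testosterone, and the labels give an age of 10 weeks. The ventral and dorsolateral lobes of 1 mouse made up 1 sample on a 1-colour array. RNA of epithelium, stroma, vessels and immune cells was therefore read together, and a lower share of a cell type cannot be told apart from less RNA per cell. The sources used here name neither the strain nor the part of Gli1 that the allele removes.

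Type I and type III interferons bind surface receptors whose JAK kinases phosphorylate STAT proteins. STAT2 and IRF9 are part of a complex that binds a DNA element made of repeated GAAA, the interferon-stimulated response element. Type II interferon, made by T and NK cells, acts mainly through STAT dimers and induces IRF1 and families of GTPases that attack vacuoles of intracellular pathogens. In the prostate, as in other glands, epithelium, macrophages and stroma can all respond.

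The shared element can be read in the members' own promoters. The following stretches belong to the factor gene Stat2, to effectors that were high in a single mutant, to guanylate-binding proteins, which were highest in another mutant, and to the immunity-related GTPases. Each stretch is 60 bases of the coding strand before the annotated start, from RefSeq on GRCm38.p6. Capitals mark every match, on either strand, to a motif of GAAA, any 2 bases and GAAA, so a match on the opposite strand reads as repeated TTTC.
Stat2, chr10:128270251-128270310, plus strand: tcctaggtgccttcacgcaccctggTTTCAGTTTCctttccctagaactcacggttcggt
Ifit1, chr19:34640779-34640838, plus strand: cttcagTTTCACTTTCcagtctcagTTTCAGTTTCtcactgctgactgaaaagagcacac
Ifit3, chr19:34583382-34583441, plus strand: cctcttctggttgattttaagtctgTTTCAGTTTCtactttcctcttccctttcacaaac
Rsad2, chr12:26456538-26456597, minus strand: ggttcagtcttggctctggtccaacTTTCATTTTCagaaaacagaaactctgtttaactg
Gbp2, chr3:142620579-142620638, plus strand: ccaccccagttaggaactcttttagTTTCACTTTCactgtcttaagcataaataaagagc
Gbp7, chr3:142530258-142530317, plus strand: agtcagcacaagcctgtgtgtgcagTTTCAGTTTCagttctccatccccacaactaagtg
Irgm1, chr11:48871421-48871480, minus strand: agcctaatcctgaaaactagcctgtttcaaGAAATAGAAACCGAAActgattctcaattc
Igtp, chr11:58199496-58199555, plus strand: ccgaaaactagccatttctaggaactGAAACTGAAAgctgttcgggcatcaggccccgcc
Irgm2, chr11:58214888-58214947, plus strand: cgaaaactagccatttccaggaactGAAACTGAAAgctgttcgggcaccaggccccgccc
Ifit1 has 2 copies of the element within its stretch, and in Irgm1 overlapping copies lie just before the start. The stretches of Igtp and Irgm2, which lie close together on chromosome 11, read almost alike. Of the 44 members 32 had a promoter in the RefSeq table, counted from 250 bases before to 50 bases after the start. The GAAA motif was found in 18 of these 32 (56.2%) and in 599 of 15812 other measured genes (3.79%). The palindrome TTCNNNGAA, the form that STAT dimers bind, was found in 11 of 32 members (34.4%) and in 8.98% of the other genes. The motifs can share bases. In all 32851 promoters of that length the shares were 3.44% and 8.3%. Both counts describe letters in a window and not bound sites. The 17 measured members with a GAAA match had a median log2 difference between genotypes of 0.47, and the 14 without one had 0.43.

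No member passed the test between genotypes, although nearly all of them read higher in the mutants. Of 43 members 0 passed at a limma adjusted p under 0.05, against 0.0197% of all genes (0.00987% higher in the mutants), and the lowest adjusted p among members was 0.265. At an unadjusted p under 0.05, 21 members were higher in the mutants, where 5.93% of all genes were, and 0 were lower, where 4.58% of all genes were. The log2 difference, Gli1-/- minus wild type, was above 0 for 40 members and for 48.5% of all genes. Its median was 0.47 over the members and -0.0048 over all genes. The mutants lay wholly above the wild-type mice for 12 members, which 8.34% of all genes did, and wholly below for 0, which 6.01% of all genes did. The 12 were Stat2, Irf1, Irf5, Irf8, Irf9, Zbp1, Oas2, Oasl1, Gbp2, Gbp7, Irgm1 and Parp14, each by its brightest probe set. For Zbp1 a dimmer probe set overlapped between the groups. Of the 43, 3 read lower in the mutants: Mx1, Ifit2 and Ifit3. The mean over the members was 0.44, and 0.29 without mutant 3. Weighting the arrays called 23 members where it called 23.1% of all genes, and leaving out wild-type mouse 1 and mutant 2 called 1 member, Ddx58, where 4.28% of all genes were called.

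**Figure D1:**
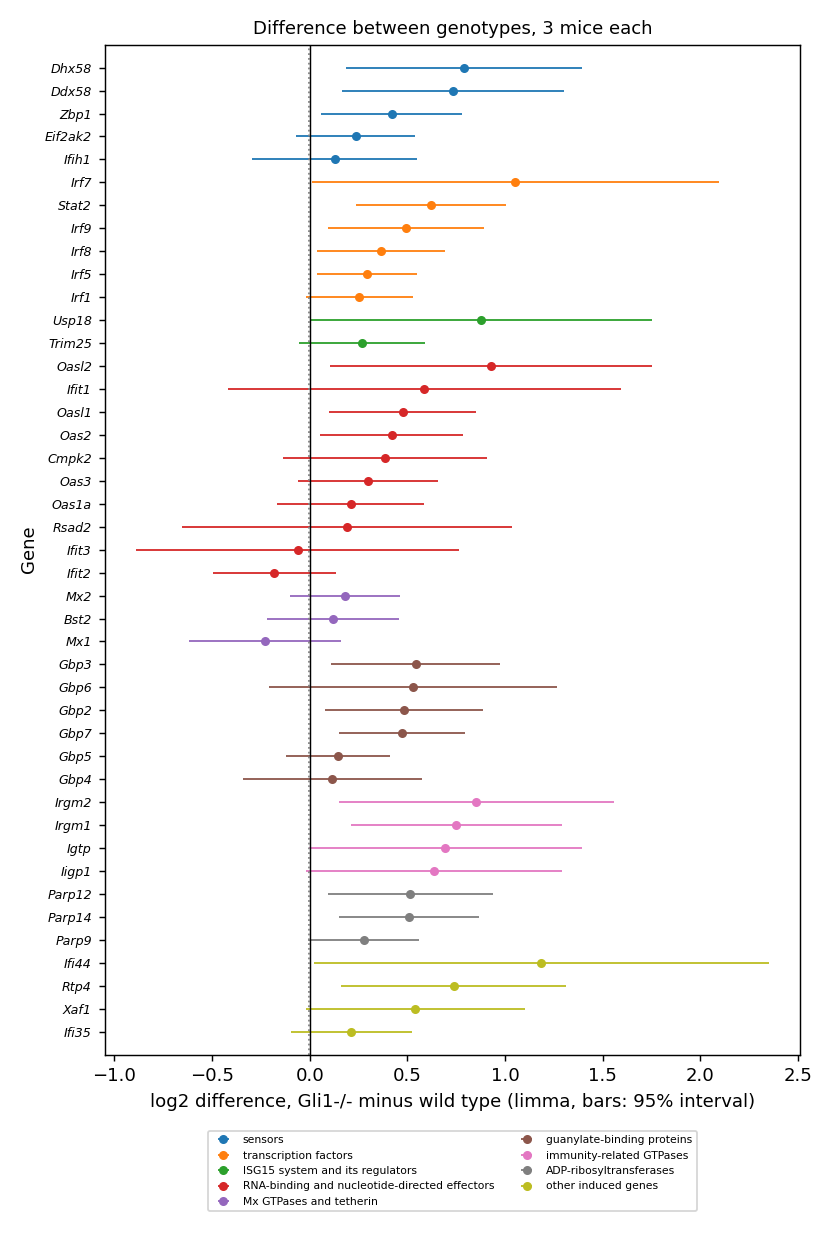
Log2 difference of each of the 43 measured members (points, x axis, Gli1-/- minus wild type) with its 95% interval from limma (bars), coloured by role. 40 points lie to the right of 0, and the intervals of 21 members do not reach it before adjustment for 20263 genes.

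The mutants spanned a wider range than the difference between the genotypes. Each gene was centred on its mean over the 6 mice, and the centred values were averaged over the 43 members. This mean was -0.12, -0.18 and -0.37 in wild-type mice 1, 2 and 3 (the controls), and -0.06, 0.20 and 0.53 in mutants 1, 2 and 3. The gap between the genotypes was thus only the step from wild-type mouse 1 to mutant 1. Mutant 3 was the highest of the mutants for 32 members and mutant 2 for the other 11, while mutant 1 was the lowest for 30. Among the wild-type mice the lowest was mouse 3 for 25 members. Of all 20263 genes, mutant 3 was the highest mutant for 5698 and mutant 2 for 8730. Mutant 1 was the lowest mutant for 7795 of them, and wild-type mouse 3 the lowest control for 6047. Leaving out both extreme mice, wild-type 3 and mutant 3, a step chosen after their values were seen, gave a mean of 0.22 with 36 members still higher.

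**Figure D2:**
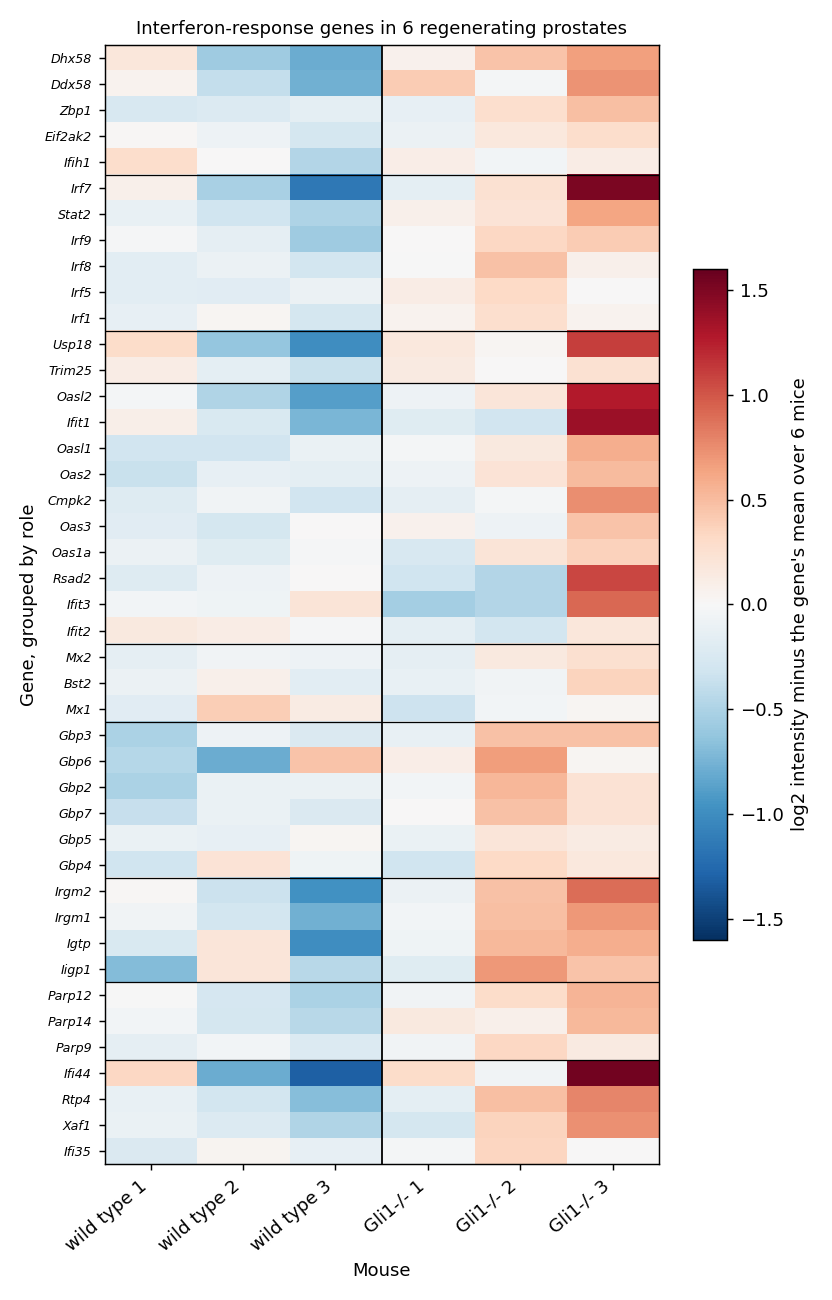
Log2 intensity of each member minus that gene's mean over 6 mice (colour) for 3 wild-type and 3 Gli1-/- mice (columns), with genes grouped by role (rows, black lines). Mutant 3 is deep red for Ifi44, Irf7, Ifit1, Oasl2, Usp18 and Rsad2, and wild-type mouse 3 is deep blue for Ifi44, Irf7, Igtp, Usp18 and Irgm2.

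The transcription factors of the response were the role in which the groups were most often apart. All 6 read higher in the mutants, 5 without overlap (8.34% of all genes), with a median log2 difference of 0.43, and 0 of them passed. Stat2, the subunit that brings the activation domain to the type I complex, read 8.64, 8.43 and 8.27 in controls 1 to 3 against 8.84, 8.97 and 9.39 in Gli1-/- mice 1 to 3. Every mutant exceeded every wild-type mouse, with group means of 8.45 ± 0.19 and 9.07 ± 0.29 (SD, n = 3). This 1.54-fold difference was 0.62 on the log2 scale (SE 0.17, 95% interval 0.24 to 1.00, limma adjusted p = 0.265), and 0.37 with wild-type mouse 3 and mutant 3 left out. Irf9, the DNA-binding subunit of the same complex and the brightest member, read 9.61, 9.48 and 9.05 in the controls against 9.64, 9.96 and 10.03 in Gli1-/- mice. The lowest mutant stood only just above the highest wild-type mouse, and the difference was 0.49 (SE 0.17, adjusted p = 0.388).

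Irf7, the factor that amplifies type I interferon production and is itself strongly induced by it, differed most within the genotypes among these 6. It read 8.41, 7.80 and 7.18 in the controls against 8.16, 8.56 and 9.82 in Gli1-/- mice. Wild-type mouse 1 exceeded mutant 1, so the groups overlapped. The difference of 1.05 had an SE of 0.45 (adjusted p = 0.471) and was 0.56 without mutant 3. Irf1, the main early factor of the type II response, differed by 0.25, Irf5 by 0.30 and Irf8, a factor of myeloid cells, by 0.36 (0.22 without mutant 2). In these 3 genes mutant 2 was the highest mouse. For Irf1 the groups were apart by a small step, from 8.23 in the highest wild-type mouse to 8.25 in the lowest mutant.

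**Figure D3:**
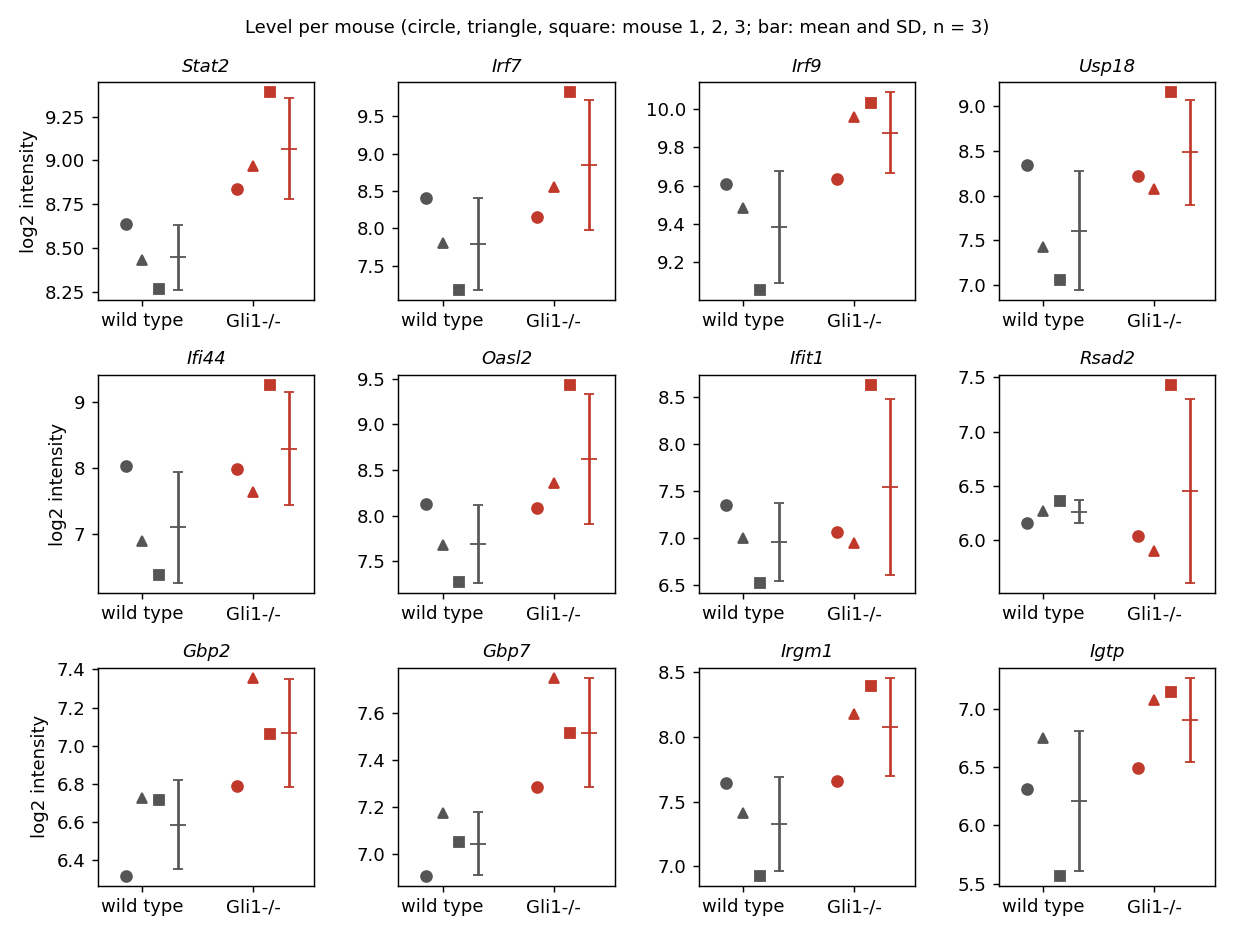
Log2 intensity per mouse for 12 members (panels, each with its own axis) in 3 wild-type mice (grey) and 3 Gli1-/- mice (red), with mean and SD beside the points. Mutant 3 (square) stands far above the other 5 mice for Ifit1 and Rsad2, while for Gbp2 and Gbp7 mutant 2 (triangle) is the highest.

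Stat2 and Gli1 lie on chromosome 10 in the RefSeq table, with 55 annotated genes between them. Of these, 36 were measured and 0 were called, and the groups did not overlap for 5 of them (13.9%, against 14.3% of all genes). Their median log2 difference was 0.05. Stat2 is the 1 measured member on that chromosome. Whether DNA carried along with the mutant allele bears on Stat2 was not tested. The Gli1 probe set itself read 6.28 to 6.51 in wild type and 6.27 to 6.34 in the mutants, which overlap (difference -0.12, adjusted p = 0.732), and without knowing the deleted part it gives no check of the genotype labels.

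Sensors of foreign nucleic acid read higher in the mutants in 5 of 5 cases, and 0 passed. Ddx58, which encodes the RNA sensor RIG-I, read 8.47, 8.03 and 7.65 in the controls against 8.82, 8.39 and 9.13 in Gli1-/- mice, with wild-type mouse 1 just above mutant 2. The difference was 0.73 (SE 0.24, adjusted p = 0.366). Its relative Dhx58, which encodes LGP2, a regulator of RIG-I-like sensing, read 7.16, 6.41 and 6.19 in the controls against 7.05, 7.44 and 7.64 in Gli1-/- mice, a difference of 0.79 (SE 0.26, adjusted p = 0.358). In both genes wild-type mouse 1 reached into the range of the mutants. Ifih1, the gene of the third RIG-I-like receptor MDA5, did not follow: it read 8.70, 8.42 and 7.95 in the controls against 8.53, 8.38 and 8.54 in Gli1-/- mice. The highest of the 6 mice was a wild type, the difference was 0.13 (SE 0.18), and leaving out wild-type mouse 3 turned it to -0.08. Zbp1, a sensor of Z-form nucleic acid that can start necroptosis, differed by 0.42 (SE 0.16) without overlap. A dimmer Zbp1 probe set read 5.32, 5.48 and 5.35 in the controls against 5.31, 6.32 and 6.35 in Gli1-/- mice, which overlap. Eif2ak2, the kinase PKR that halts translation on double-stranded RNA, differed by 0.24 (SE 0.13; 0.15 without wild-type mouse 3 and 0.16 without mutant 3).

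Of the ISG15 system, Usp18, the protease that removes ISG15 and restrains the type I receptor, was measured with the ligase gene Trim25, which also activates RIG-I. Usp18 read 8.35, 7.42 and 7.06 in the controls against 8.22, 8.08 and 9.16 in Gli1-/- mice. Wild-type mouse 1 exceeded 2 of the 3 mutants, and the difference was 0.88 (SE 0.38, adjusted p = 0.475), or 0.54 without mutant 3. Trim25 read 8.47, 8.19 and 8.00 in the controls against 8.51, 8.36 and 8.60 in Gli1-/- mice, which overlap (difference 0.27, SE 0.14), and differed by 0.16 without wild-type mouse 3.

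Effectors that bind viral RNA or change nucleotide pools were high in 1 mutant. In all 10 of these genes mutant 3 was the highest of the 3 mutants. Their centred mean was 0.75 in mutant 3, -0.17 and -0.08 in mutants 1 and 2, and -0.20 to -0.12 in wild type, so mutant 1 lay within the wild-type range and mutant 2 just above it. Their mean log2 difference was 0.33 with all mice and 0.03 without mutant 3. Ifit1, which holds back translation of RNA that lacks a host cap, read 7.34, 7.003 and 6.52 in the controls against 7.06, 6.95 and 8.62 in Gli1-/- mice. Mutants 1 and 2 lay inside the wild-type range and mutant 3 far above it. The difference of 0.59 (SE 0.43, adjusted p = 0.694) was 0.05 without mutant 3. Rsad2, which encodes viperin, an enzyme that makes a chain-terminating nucleotide, read 6.15, 6.27 and 6.36 in the controls against 6.03, 5.89 and 7.43 in Gli1-/- mice. Its neighbour Cmpk2, which supplies the nucleotide triphosphate, read 7.66, 7.82 and 7.56 in the controls against 7.73, 7.84 and 8.62 in Gli1-/- mice. For Rsad2, mutants 1 and 2 were below every wild-type mouse and mutant 3 above them all. The differences were 0.19 (SE 0.37) for Rsad2 and 0.38 (SE 0.22) for Cmpk2, and -0.30 and 0.11 without mutant 3. Ifit3, a partner of Ifit1, had the same shape, with 7.38, 7.36 and 7.63 in the controls against 6.88, 6.96 and 8.34 in Gli1-/- mice (difference -0.06, SE 0.36). The Ifit1, Ifit3 and Rsad2 stretches printed above hold the GAAA motif because stretches were taken only from promoters with a match. In the same role Cmpk2, Ifit2, Oasl1 and Oasl2 had 0 matches, so the motif is not tied to the high reading in mutant 3. Ifit2 differed by -0.18 (SE 0.14), by -0.31 without mutant 3 and by -0.079 without mutant 2.

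The 2',5'-oligoadenylate synthetases, which activate RNase L, and the related OAS-like proteins were also highest in mutant 3. Oasl1, a repressor of Irf7 translation in the mouse, read 6.71, 6.71 and 6.91 in the controls against 6.99, 7.17 and 7.60 in Gli1-/- mice. The groups did not overlap (difference 0.48, SE 0.16, adjusted p = 0.374), and the difference was 0.30 without mutant 3. Oasl2, the brightest of these effectors, read 8.13, 7.68 and 7.27 in the controls against 8.08, 8.36 and 9.43 in Gli1-/- mice, a difference of 0.93 (SE 0.36), or 0.52 without mutant 3. Oas2 and Oas3 differed by 0.42 and 0.30, and by 0.27 and 0.15 without mutant 3. Oas1a, a synthetase that is itself induced by interferon, read 7.97, 7.88 and 8.05 in the controls against 7.82, 8.27 and 8.44 in Gli1-/- mice, with mutant 1 below every wild-type mouse (difference 0.21, SE 0.16). The Oas1a difference was 0.079 without mutant 3 and 0.39 without mutant 1.

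The Mx GTPases and tetherin were the role with the smallest mean difference, 0.02, in which opposite directions offset each other. Mx1, whose product traps viral nucleoproteins and which is defective in most inbred laboratory strains, differed by -0.23 (SE 0.17; -0.088 without wild-type mouse 2 and -0.38 without wild-type mouse 1). Mx2 differed by 0.18 (SE 0.12; 0.098 without mutant 3 and 0.30 without mutant 1) at the 10.0 percentile of all genes by level. Levels that low are compressed on arrays, and Mx1 was also dim, at the 24.2 percentile. Bst2, which encodes tetherin and is made constitutively by plasmacytoid dendritic cells, read 7.80, 7.97 and 7.72 in the controls against 7.77, 7.84 and 8.24 in Gli1-/- mice. Only mutant 3 lay above the wild-type range, and the difference of 0.12 (SE 0.15) turned to -0.03 without it.

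GTPases that are best known as targets of type II interferon read higher in the mutants in 10 of 10 cases. In 5 of the 6 guanylate-binding protein genes the highest mutant was mouse 2, in contrast to the RNA-directed effectors. Mutant 2 was also the most frequent highest mutant over all genes, for 8730 of 20263. Gbp2 read 6.32, 6.72 and 6.72 in the controls against 6.79, 7.35 and 7.06 in Gli1-/- mice, a difference of 0.48 (SE 0.17, adjusted p = 0.404). Gbp7 read 6.91, 7.17 and 7.05 in the controls against 7.29, 7.75 and 7.51 in Gli1-/- mice, a difference of 0.47 (SE 0.14, adjusted p = 0.305). Neither gene overlapped between the groups, and wild-type mouse 1, the highest wild type for Usp18 and Ifit1, was the lowest here. That mouse was the lowest wild type for 9980 of all 20263 genes. Gbp3 read 5.58, 6.00 and 5.85 in the controls against 5.96, 6.54 and 6.55 in Gli1-/- mice, with mutant 1 inside the wild-type range (difference 0.54, SE 0.19). The members Gbp4, Gbp5 and Gbp6 stood at the 14.8 to 24.3 percentiles of level and differed by 0.12, 0.15 and 0.53. Single mice moved these 3 values: with 1 mouse left out they ran from -0.016 to 0.30, from 0.083 to 0.24 and from 0.26 to 0.89. Only Gbp4 changed direction. The mean of the 6 genes was 0.38, and 0.16 once wild-type mouse 1 and mutant 2 were left out. These genes have close copies in clusters, and probes shared among copies were not examined.

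The immunity-related GTPases, which mark and break pathogen vacuoles, had the largest median difference among the roles with 3 or more measured genes, at 0.72. Irgm1, a regulator of the family that also acts in autophagy, read 7.64, 7.41 and 6.93 in the controls against 7.66, 8.18 and 8.39 in Gli1-/- mice. The groups did not overlap, by the small step from 7.64 to 7.66, and the difference was 0.75 (SE 0.23, adjusted p = 0.328). Igtp, also called Irgm3, read 6.31, 6.75 and 5.57 in the controls against 6.49, 7.08 and 7.14 in Gli1-/- mice. Wild-type mouse 3 was far below the other 5 mice, and without it the difference shrank from 0.69 (SE 0.30) to 0.37. Irgm2, whose promoter nearly matches that of Igtp, differed by 0.85 (SE 0.30) and Iigp1, an effector of the family, by 0.64 (SE 0.28).

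The 3 ADP-ribosyltransferases and the remaining induced genes were also higher in 7 of 7 cases. Parp14, a mono-ADP-ribosyltransferase that modulates cytokine signalling in macrophages, read 7.66, 7.42 and 7.25 in the controls against 7.86, 7.78 and 8.22 in Gli1-/- mice. Its groups did not overlap (difference 0.51, SE 0.16, adjusted p = 0.318). Parp12 read 8.89, 8.62 and 8.39 in the controls against 8.83, 9.18 and 9.43 in Gli1-/- mice, with wild-type mouse 1 above mutant 1 (difference 0.52, SE 0.18), and Parp9 differed by 0.28 (SE 0.12; 0.18 without mutant 2). Rtp4, a chaperone of surface receptors that also blocks viral RNA, read 7.59, 7.41 and 7.02 in the controls against 7.55, 8.19 and 8.49 in Gli1-/- mice (difference 0.74, SE 0.25, adjusted p = 0.367). Ifi44, a cytoplasmic antiviral protein gene, had the widest interval of all members. It read 8.03, 6.91 and 6.39 in the controls against 7.99, 7.64 and 9.25 in Gli1-/- mice, so wild-type mouse 1 exceeded 2 mutants. The difference of 1.19 had a 95% interval from 0.02 to 2.35 (adjusted p = 0.468) and was 0.71 without mutant 3. The apoptosis-related gene Xaf1 differed by 0.54 (SE 0.24), by 0.31 without mutant 3 and by 0.82 without mutant 1. Ifi35, the brightest of the remaining genes, read 8.70, 8.98 and 8.80 in the controls against 8.89, 9.27 and 8.94 in Gli1-/- mice, which overlap (difference 0.21, SE 0.13, and 0.095 without mutant 2).

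The roles did not share one order of mice. For sensors the centred means were 0.05, -0.25 and -0.49 in controls 1 to 3 against 0.07, 0.17 and 0.45 in Gli1-/- mice 1 to 3. Guanylate-binding proteins had -0.38, -0.17 and -0.02 in the controls against -0.08, 0.44 and 0.21 in Gli1-/- mice. Wild-type mouse 1 was thus the highest wild type for the sensors and the lowest for the guanylate-binding proteins, and wild-type mouse 3 the reverse. Over all genes the centred means were -0.05, 0.01 and 0.04 in the controls against -0.03, 0.03 and -0.01 in Gli1-/- mice. Within each genotype that is the order of the guanylate-binding proteins, at a smaller size. With 3 mice a genotype these orders describe single animals and were not tested.

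**Figure D4:**
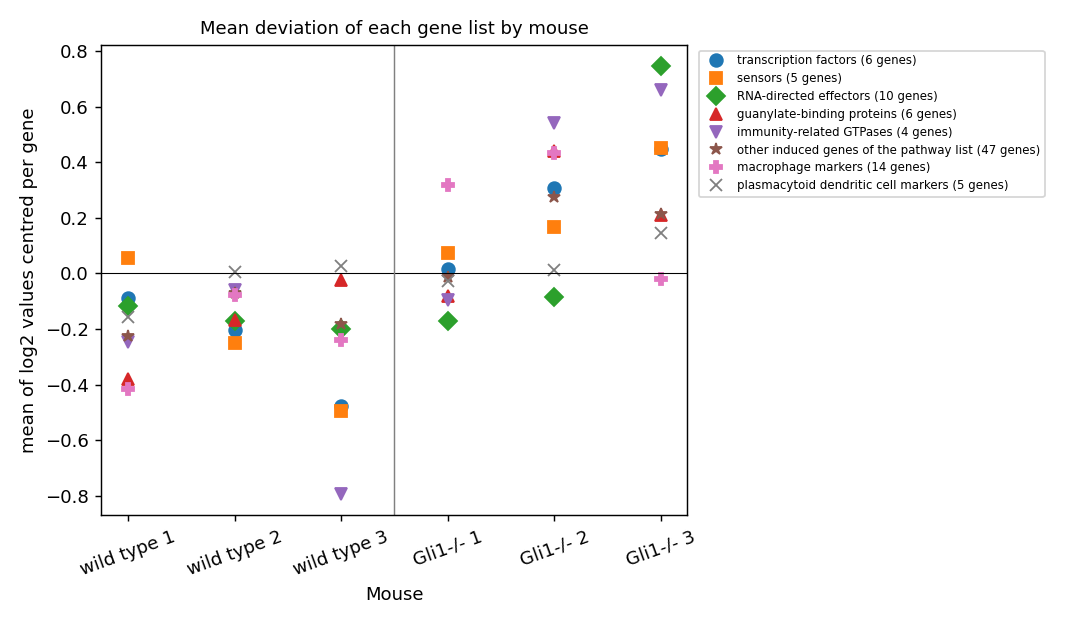
Mean of log2 values centred per gene (y axis) for 5 member roles, the other induced genes of the pathway and 2 marker lists (symbols) in each of 6 mice (x axis). Mutant 3 holds the highest points of the RNA-directed effectors at 0.75, mutant 2 those of the guanylate-binding proteins at 0.44 and of the macrophage markers at 0.43.

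Interferon transcripts as a set differed little between the genotypes. Of 16 measured ligand genes 0 passed and 10 read higher in the mutants, with a median log2 difference of 0.06. Their levels ran from the 5.1 to the 90.4 percentile. Several alpha interferon genes stood at the 5.1 to 8.2 percentiles, where arrays compress differences, so the small median does not show that the ligands were unchanged. Ifnb1, the first type I interferon made after virus sensing, read 5.82, 5.73 and 5.73 in the controls against 5.99, 5.86 and 6.30 in Gli1-/- mice (difference 0.29, SE 0.13, adjusted p = 0.49). The groups were apart by the step from 5.82 to 5.86, at the 30.3 percentile of level. Ifng, the type II interferon gene, stood at the 26.9 percentile and differed by 0.17 (SE 0.11) with overlap. Ifnab, an alpha interferon family gene, read 6.70, 6.60 and 6.05 in the controls against 7.01, 6.98 and 7.30 in Gli1-/- mice. Its groups did not overlap (difference 0.65, SE 0.18, limma adjusted p = 0.296). Alpha interferon genes are close copies of each other, so a reading of 1 of them is uncertain.

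All 6 receptor genes read higher in the mutants, with a median of 0.15, and 0 passed. Of these, 3 did so without overlap (Ifnar2, Ifnlr1 and Il10rb), as 8.34% of all genes did. The type I receptor chains Ifnar1 and Ifnar2 differed by 0.13 and 0.21, the type II chains Ifngr1 and Ifngr2 by 0.08 and 0.16, the type III chain Ifnlr1 by 0.13 and Il10rb, which it shares with interleukin-10 family receptors, by 0.41. Of the receptor-bound kinases Jak1 differed by 0.19, Jak2 by 0.32 without overlap and Tyk2 by -0.01.

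Further genes of the pathway were read from a list of 94 measured genes, of which 0 passed and 75 read higher. Of 47 other interferon-induced genes 40 were higher, with a median of 0.31. Their groups were apart upward for 18 (8.34% of all genes) and downward for 1 (6.01% of all genes). The smallest unadjusted p there belonged to Slfn2, a Schlafen gene needed for quiescence of T cells and monocytes, which read 6.84, 7.25 and 6.98 in the controls against 7.81, 8.06 and 8.08 in Gli1-/- mice. Its 1.95-fold difference had an adjusted p of 0.0911 in limma, lower than that of any member. Ido1, the tryptophan-degrading enzyme induced by type II interferon, and Slfn1 differed by 0.69 and 0.53 (adjusted p = 0.101 and 0.221). The 3 mutants lay close together for Slfn2, Ido1 and Slfn1. A choice by smallest p favours genes with little spread within groups, so these 3 cannot be set against the effectors above.

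Upstream sensors and adaptors read higher in 9 of 13 cases, with a median of 0.12, and 0 passed. Tlr7, the endosomal receptor for single-stranded RNA of myeloid and B cells, read 7.71, 7.74 and 7.45 in the controls against 8.47, 8.41 and 8.36 in Gli1-/- mice (1.72-fold, adjusted p = 0.0911). Tlr3, the receptor for double-stranded RNA, and the adaptor gene Myd88 differed by 0.68 and 0.45 (adjusted p = 0.275 and 0.249). These 3 genes did not overlap between the groups. Aim2, a cytosolic DNA sensor that forms inflammasomes, went the other way at -1.002 (SE 0.44), with overlap, and was chosen after its value was seen. The inhibitors gave a median of 0.11 with 7 of 8 higher, led by the feedback inhibitor gene Socs3 at 0.29 (SE 0.13), and by Irf2bp2 and Ptpn6 at 0.24 and 0.17.

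Marker lists of immune cells differed between the genotypes to different degrees. Of 14 measured macrophage markers 12 read higher in the mutants, 9 of them without overlap, and Mertk lay wholly lower. Of all genes 8.34% lay wholly higher and 6.01% wholly lower. The median of these markers was 0.56, and 0 passed. Their mean level ran from 8.16 to 8.50 in wild type and from 8.56 to 9.01 in the mutants. The scavenger receptor gene Msr1 and Laptm5 differed by 1.09 and 0.88 (adjusted p = 0.101 and 0.109). Centred means of the macrophage list were -0.42, -0.08 and -0.24 in controls 1 to 3 against 0.32, 0.43 and -0.02 in Gli1-/- mice 1 to 3. Mutant 3, the highest mouse for the members, was thus the lowest mutant for the macrophage list, and without it the macrophage mean was 0.62 while the mean of the members was 0.29.

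Other immune marker lists had smaller medians, with 0 markers passing. The 9 T cell markers had a median of 0.10, the 7 NK cell markers -0.06, the 7 B and plasma cell markers 0.01, the 7 dendritic cell markers 0.11 and the 6 neutrophil markers 0.19. Single markers of these lists differed as far as the members. Cd3g of T cells, Gzmb of cytotoxic cells and Itgax of myeloid cells differed by 0.78, 0.74 and 0.67, all higher without overlap (limma adjusted p = 0.336, 0.221 and 0.311). Jchain of plasma cells differed by -0.77, wholly lower (limma adjusted p = 0.212). In the same B and plasma cell list Mzb1 and Ms4a1 lay wholly higher, by 0.27 and 0.44. Of the 7 NK cell markers 5 read lower, 1 of them wholly, and 2 of the 9 T cell markers read lower. All 7 endothelial markers read higher, 2 without overlap (Emcn and Plvap), where 8.34% of all genes did so, with a median of 0.20. Neutrophil markers stood at the 8.6 to 27.2 percentiles of level. The 5 markers of plasmacytoid dendritic cells, the strongest makers of type I interferon, had a median of 0.12, and Bst2 is both in this list and among the members. Skeletal muscle markers, a tissue that can be taken along with the lobes, had centred means of -0.85, 0.09 and -0.57 in the controls against 1.10, 0.55 and -0.32 in Gli1-/- mice. All 8 muscle markers read higher in the mutants, 0 without overlap and 0 passing. Their median difference of 0.94 was larger than the 0.47 of the members. Seminal vesicle markers stood at 1.59 for wild-type mouse 3, at 1.08 for mutant 2, and between -0.82 and -0.30 in the other mice. The 10 prostate epithelial markers stood at the 89.7 to 99.9 percentiles of level, as the tissue label says. Of these, 5 lay wholly lower in the mutants (6.01% of all genes) and 1 wholly higher (8.34%). At an unadjusted p under 0.05, 4 were lower (4.58% of all genes), and 0 passed, with a median difference of -0.14. The secretory genes Tgm4 and Pbsn differed by -0.52 and -0.88 (adjusted p = 0.143 and 0.221). The part of any of these cell types and tissues in the members' differences was not tested.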

How the data were processed

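The deposited table held log2 intensities, 1 column per mouse, for 32025 probe sets named by RefSeq transcript, with no missing value, and was used as deposited. The submitters' processing notes name RMA and Partek without role, order or version, and the array model and genome build are not named there. Array medians lay between 6.76 and 6.95. RMA compresses differences of dim genes. Symbols came from a RefSeq table of GRCm38.p6, in which 25343 probe sets matched 1 gene and 6682 none. The brightest probe set stood for each of 20263 genes.

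Gli1-/- minus wild type was tested over all genes and 6 mice by limma 3.58.1 (R 4.3.3; lmFit, then eBayes; two-sided, without covariates), with Benjamini-Hochberg adjustment over all genes. The fit was tested on simulated data. The median SE of a log2 difference was 0.123, a precision limited by having 6 arrays. Each sample was a separate mouse, so p-values measure the spread between mice.

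The members and lists were chosen with earlier results of these data known. All members may be named. Values per mouse are given for the 10 members with the smallest p, for Stat2, Irf7, Irf9, Usp18, Ifit1, Ifih1, Gbp2 and Igtp, and for the brightest member of each role. Per-mouse values of Rsad2, Cmpk2, Ifit3, Oas1a and Ifi44 were added after they were seen. The marker Mzb1 was also named after its value was seen. Other pathway genes are every receptor and kinase, Ifnb1, Ifng and up to 3 genes a list by smallest p, and up to 2 genes of a marker list. Some genes that this rule names are not reported here. Alternatives were a replicate block, an intensity trend, array weights, quantile and median scaling, a filter on dim genes, 2 other choices of probe set, and leaving out mice.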

Additional observations from a re-analysis of the deposited data

How the results depend on the processing

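Over 16 alternatives 37 of 43 members kept their direction in every one that measured them. The count of members higher in the mutants was 38 to 41 with single mice left out, and 34 of the 36 that remained without the dimmest 30% of genes. No member passed except under 2 alternatives. Array weights, which ran from 0.353 to 7.22 and came from an iteration that stopped before converging, called 4680 genes (23.1%) and 23 members, 22 upward and Mx1 downward. Without the first wild-type and the second mutant mouse the fit called 868 genes (4.28%) and 1 member, Ddx58. Over all genes 4 were called, and 25 with the replicate number as a block, 8 with median centring, 8 without dim genes and 3 to 868 with 1 or 2 mice left out. The block called 0 members. Same-numbered mice had correlations of deviations of 0.162, 0.248 and -0.153, so the numbers were not taken as pairs. With 1 or 2 mice left out, the difference turned direction for Bst2 (-0.083 to 0.21), Gbp4 (-0.15 to 0.30), Ifih1 (-0.11 to 0.35), Ifit1 (-0.17 to 1.08), Ifit3 (-0.535 to 0.19) and Rsad2 (-0.30 to 0.47) among the members. Outside them it turned for Ifngr1 (-0.10 to 0.19) and Tyk2 (-0.054 to 0.025). The mean of Mx1, Mx2 and Bst2 was 0.02 and ran from -0.092 to 0.13. Array weights turned Gbp4 to -0.10, Ifit3 to 0.42 and that mean to -0.036. The pair of wild-type mouse 3 and mutant 3 was chosen for removal after seeing the data. The cause of these turns was not tested.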
